A study of Homo sapiens with 6 samples.

Results

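The PTP4A phosphatases, also named phosphatases of regenerating liver, are the products of PTP4A1, PTP4A2 and PTP4A3. These 3 of 18852 named genes were read through every array probe annotated with one of their symbols, which gave 8 of 48803 probes: 2 for PTP4A1, 2 for PTP4A2 and 4 for PTP4A3. The probes were read in ES-2 cells, an established ovarian cancer line that the labels place among clear cell cancers, 48 hours after transfection. One group of 3 samples had received a mimic of human mir-22 at 65 nM with X-tremeGENE siRNA reagent, and the other group of 3 samples had received negative control mimic #2, modelled on worm microRNAs, for which the labels state no dose. Both groups were the same line, grown in the same medium with serum, and no mock-transfected or untreated sample was used here. The genes were chosen with their values between the mimic and control arrays already known, so those values are given as a description, without p-values.

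PTP4A proteins are small phosphatases with the cysteine-based active site of protein tyrosine phosphatases. They end in a CAAX box, which is farnesylated and anchors them to the plasma membrane and endosomes, and they bind the CNNM proteins, which govern magnesium transport. PTP4A1 was found as an immediate early gene of regenerating rat liver, PTP4A2 is known for broad expression, and PTP4A3 is known for its raised level in metastases of colorectal cancer and in other tumours, ovarian cancers among them. A microRNA lowers its targets by pairing, mainly through its seed at bases 2 to 8, with sites that lie mostly in 3′ untranslated regions of messenger RNAs.

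The mature sequences of mir-22 are shown because the treated cells received a mimic of it. The labels name the mimic only as mir-22, so both arms are given, from RefSeq on GRCh38.p14, with the seed in capitals. The 3p arm lies at chr17:1713914-1713935 on the minus strand and the 5p arm at chr17:1713952-1713973 on the same strand.
hsa-miR-22-3p: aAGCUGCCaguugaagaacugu
hsa-miR-22-5p: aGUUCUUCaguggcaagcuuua
The 7 bases complementary to the 3p seed are GGCAGCU, and those complementary to the 5p seed are GAAGAAC. None of the other human mature microRNAs in the table of 2370 sequences had either seed. Whether PTP4A messages hold such sites was not tested, since no transcript sequence was used here.

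Of the 48803 probes, between 17465 and 19244 were detected per array, and 18732 passed the filter of a detection p under 0.01 on at least 3 of the 6 arrays. Control replicate 3 stood apart from the other controls, with correlations of at most 0.981 to them over these probes, against 0.997 between control replicates 1 and 2 and 0.995 to 0.998 among the mimic arrays. Most results below are therefore also given without that array. The epithelial keratin genes KRT8 and KRT18 and the mesenchymal genes VIM, CDH2, FN1 and ZEB1 were detected on all 6 arrays, whereas EPCAM, CDH1, KRT19, PAX8 and NAPSA were detected on none and WT1 on 4. The blood cell genes PTPRC, CD3E, HBB and HBA2 were also detected on no array, while CD68, CDH5 and PECAM1 were detected on all 6. None of the markers detected passed the threshold between groups. The level of mature mir-22 after transfection was not analysed here.

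PTP4A3 was lower with the mir-22 mimic on all 3 of its probes that rose above background, by 1.49-fold to 1.75-fold. All values below are log2 intensities after background correction and quantile normalisation unless a raw intensity is named. The probe with the highest signal, ILMN_1769779, read 6.84, 6.64 and 6.78 on mimic replicates 1 to 3 and 7.35, 7.23 and 7.41 on control replicates 1 to 3. Every mimic array lay below every control array, with 0.38 between the nearest pair. The difference was -0.58 ± 0.10 (moderated SE, 3 arrays per group), or 1.49-fold lower, and a lower level in every cell and fewer cells carrying the message cannot be told apart in bulk RNA.

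The other detected probes of PTP4A3 showed a larger difference than that probe did. ILMN_1662427 read 6.14, 6.19 and 6.00 with the mimic and 6.85, 6.81 and 7.07 with the control, a difference of -0.80 ± 0.11 (1.74-fold lower). ILMN_2359710 read 6.44, 6.50 and 6.31 with the mimic and 7.14, 7.14 and 7.40 with the control, a difference of -0.81 ± 0.11 (1.75-fold lower). The gap between the groups was 0.62 and 0.64 for these probes, against a range of 0.19 among the mimic arrays of each. By size of difference they stood at rank 300 and 290 of the 18732 probes, and ILMN_1769779 at rank 991.

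These probes followed one another closely. ILMN_1662427 and ILMN_2359710 correlated at 0.999 over the 6 arrays, and at 0.991 after each group's mean had been subtracted, so they ordered even the arrays of a group alike. ILMN_1769779 correlated with them at 0.953 and 0.948 over the 6 arrays but at 0.27 and 0.22 within groups, so it shared the difference between groups and not the order of the arrays within a group. Probe sequences were not used here, so whether the closely matching probes share bases of the transcript is not known. The remaining probe, ILMN_1782530, was above background on no array, with raw intensities of 42.8 to 45.8 against array medians of 45.0 to 48.6, and no fold is given for it.

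The raw PTP4A3 signal shows what the normalisation adds. On ILMN_1769779 the raw intensity was 186.3, 175 and 169.9 on control replicates 1 to 3 and 160.3, 138.2 and 122.2 on mimic replicates 1 to 3. Control replicate 3 was thus the lowest control on that probe before normalisation and the highest after it. The raw groups did not overlap there, but mimic replicate 1 (160.3) lay close to control replicate 3 (169.9). On ILMN_1662427 the raw intensity was 139.8, 137.7 and 138.4 on the control arrays and 107.6, 108.1 and 82.5 on the mimic arrays. The control arrays were thus close to level on this probe before normalisation, and control replicate 3 was the highest of them only after it, at 0.24 over the average of control replicates 1 and 2. ILMN_2359710 had raw control values of 164.4, 166.0 and 169.3, with control replicate 3 slightly the highest, and mimic values of 127.0, 128.4 and 96.0. Mimic replicate 3 had the lowest raw intensity on each of these probes. It was also the mimic array with the lowest upper quartile of raw intensity over all probes, at 80.0 against 94.9 and 96.2. Without control replicate 3 the differences of ILMN_1769779, ILMN_1662427 and ILMN_2359710 were -0.54, -0.72 and -0.72.

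**Figure D1:**
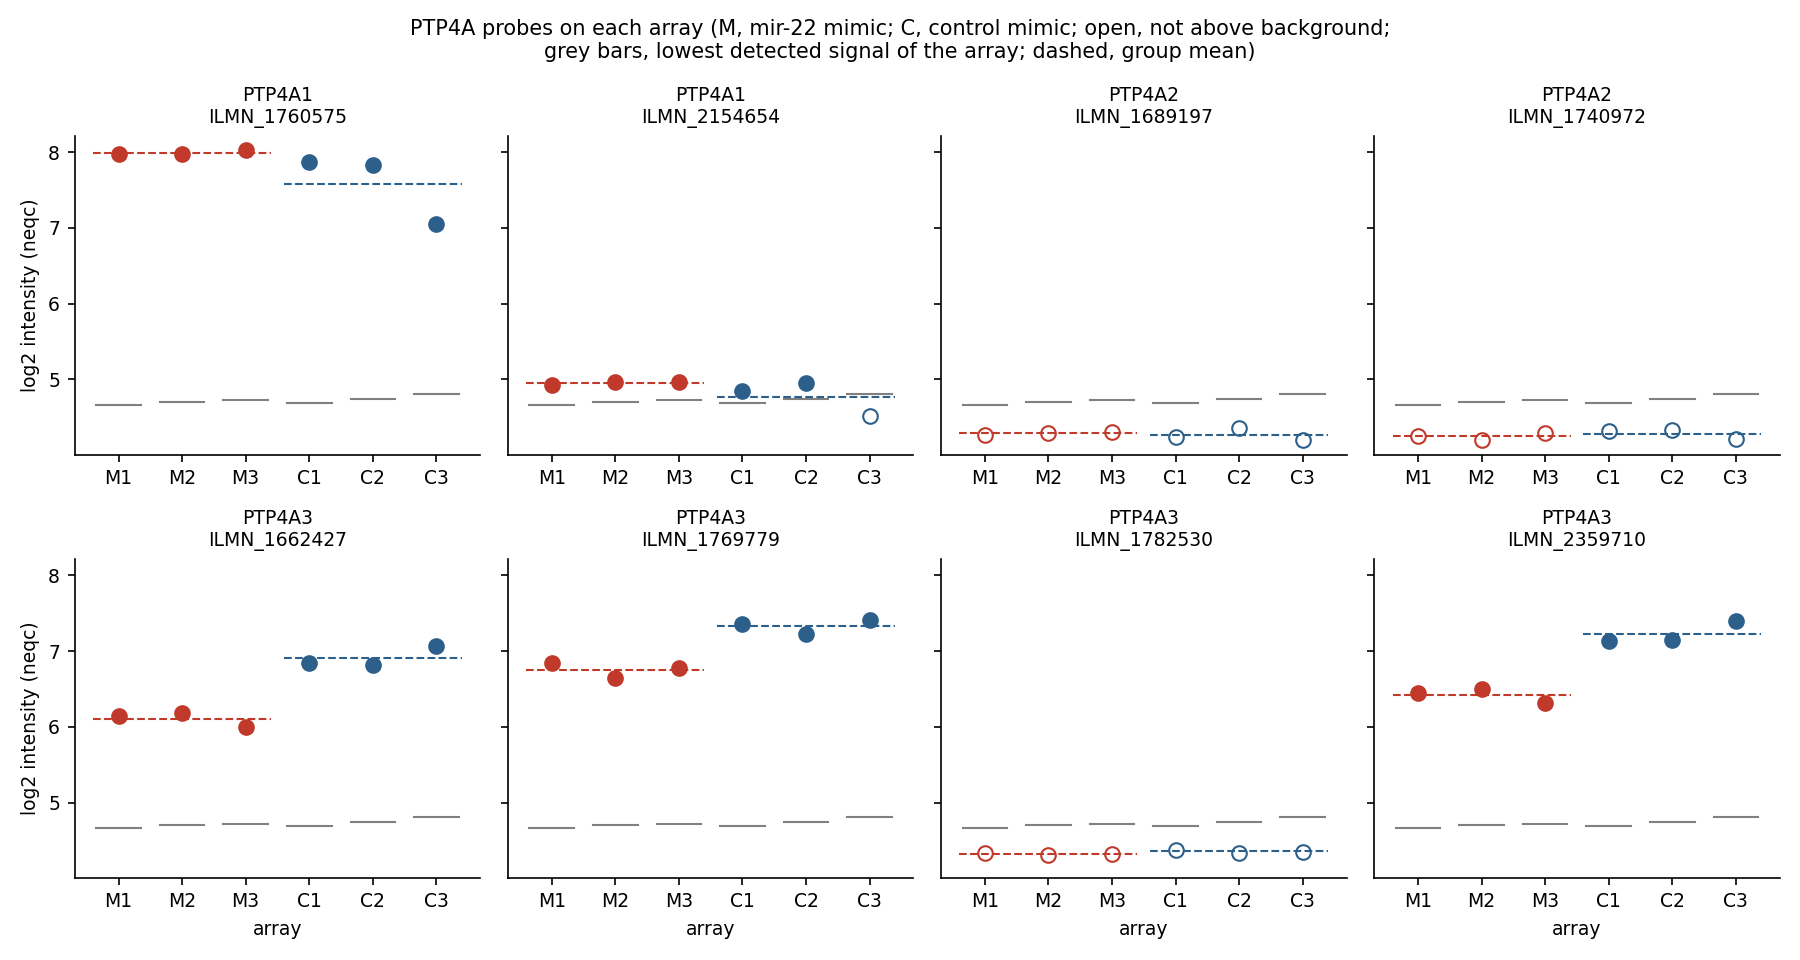
Log2 intensity (neqc) of each of the 8 PTP4A probes (panels) on the mir-22 mimic arrays (M1 to M3, red) and control mimic arrays (C1 to C3, blue). Filled points were above background, dashed lines are group means and grey bars are the lowest detected signal of each array. The mimic arrays lie below the control arrays on all 3 detected PTP4A3 probes, C3 alone is low on the PTP4A1 probes, and both PTP4A2 probes lie below the grey bars throughout.

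PTP4A1 was nearly level between the mimic arrays and control replicates 1 and 2, and was low on control replicate 3. Its probe with the highest signal, ILMN_1760575, read 7.98, 7.98 and 8.03 with the mimic and 7.87, 7.84 and 7.05 on control replicates 1 to 3. The groups did not overlap, but the gap between them was 0.11, while control replicate 3 differed from the average of control replicates 1 and 2 by -0.81. Of the 18732 probes, 6.11% lay further below on that array. The difference was 0.41 ± 0.21 (moderated SE, 3 arrays per group), or 1.33-fold higher with the mimic, and without control replicate 3 it was 0.14 ± 0.08. That array therefore sets most of the value.

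The spread of PTP4A1 was unequal between the groups. Its standard deviation was 0.026 over the mimic arrays and 0.466 over the control arrays. The standard error over beads was 9.51% of the intensity on control replicate 3 and 7.88% on mimic replicate 3, against 3.73% to 5.31% on the others. On the raw scale ILMN_1760575 read 136.9 on control replicate 3, 257.2 and 253.3 on the other controls, and 319.0, 310.2 and 254.8 on mimic replicates 1 to 3. The cause of the low value on control replicate 3 was not tested.

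The other PTP4A1 probe, ILMN_2154654, was dim and showed the same outline. It read 4.92, 4.96 and 4.97 with the mimic and 4.85, 4.95 and 4.52 with the control, and was above background on all mimic arrays and on control replicates 1 and 2. Control replicate 2 lay within the mimic range, so the groups overlapped. Its difference was 0.18 ± 0.13 on 6 arrays and 0.05 ± 0.09 without control replicate 3. The 2 probes of PTP4A1 correlated at 0.972 over the 6 arrays, and at 0.495 without control replicate 3. RefSeq lists 7 pseudogenes of PTP4A1 and 2 of PTP4A2, none of which had a probe named here, and whether RNA from such copies binds these probes was not tested.

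PTP4A2 gave no measurable signal. Neither of its probes was above background on any of the 6 arrays. Their detection p-values, 1 minus the deposited detection score, were 0.21 to 0.722 for ILMN_1689197 and 0.266 to 0.748 for ILMN_1740972. Their raw intensities ran from 38.3 to 44.6 and from 38.9 to 43.0, whereas the lowest detected raw signal of an array lay between 49.9 and 54.0. The normalised values, 4.20 to 4.36 and 4.20 to 4.33, lay below the lowest detected level of every array (4.66 to 4.81). A level at or under that limit cannot be ordered between arrays, so no fold is given for PTP4A2, and a probe without signal does not show that its transcript is absent.

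Of the 8 probes 5 passed the filter on dim signals, 4 of them detected on all 6 arrays and ILMN_2154654 on 5. In limma, 3 of these 5 passed the threshold of an adjusted p under 0.05, all of PTP4A3 and all lower. Over all kept probes 6.46% passed, 3.04% higher and 3.42% lower with the mimic, and with median scaling the split was 459 higher and 169 lower against 569 and 641. The groups did not overlap for 4 of the 5, against 31.3% of all kept probes (13.7% higher and 17.5% lower with the mimic). Since the genes were chosen on this contrast, these counts are no test of them and nothing is read from them. The count of 3 became 0 when any 1 mimic array was left out. Over all probes the count then fell from 1210 to 134, 137 and 222 without mimic replicate 1, 2 and 3. Over 6 ways of leaving out 1 array the difference of ILMN_1769779 ran from -0.63 to -0.52. That of ILMN_1662427 ran from -0.85 to -0.72 and that of ILMN_2359710 from -0.85 to -0.72. ILMN_1760575 of PTP4A1 ran from 0.14 to 0.55.

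Probes of PTP4A1 correlated negatively with those of PTP4A3, at -0.76 to -0.68 over the 6 arrays. After normalisation, control replicate 3 was the lowest array for both PTP4A1 probes and the highest for all 3 PTP4A3 probes. On the raw scale it was also the lowest for both PTP4A1 probes, but among the PTP4A3 probes it was the highest only on ILMN_2359710. Without control replicate 3 the correlations lay between -0.98 and -0.59. After each group's mean had been subtracted, with all 6 arrays, they lay between -0.87 and -0.47. Leaving out control replicate 3 keeps the difference between groups, which was known when the genes were chosen. Subtracting group means keeps control replicate 3. No correlation was taken with both removed, so an opposition apart from them is not shown. These values describe 6 arrays that share their normalisation.

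**Figure D2:**
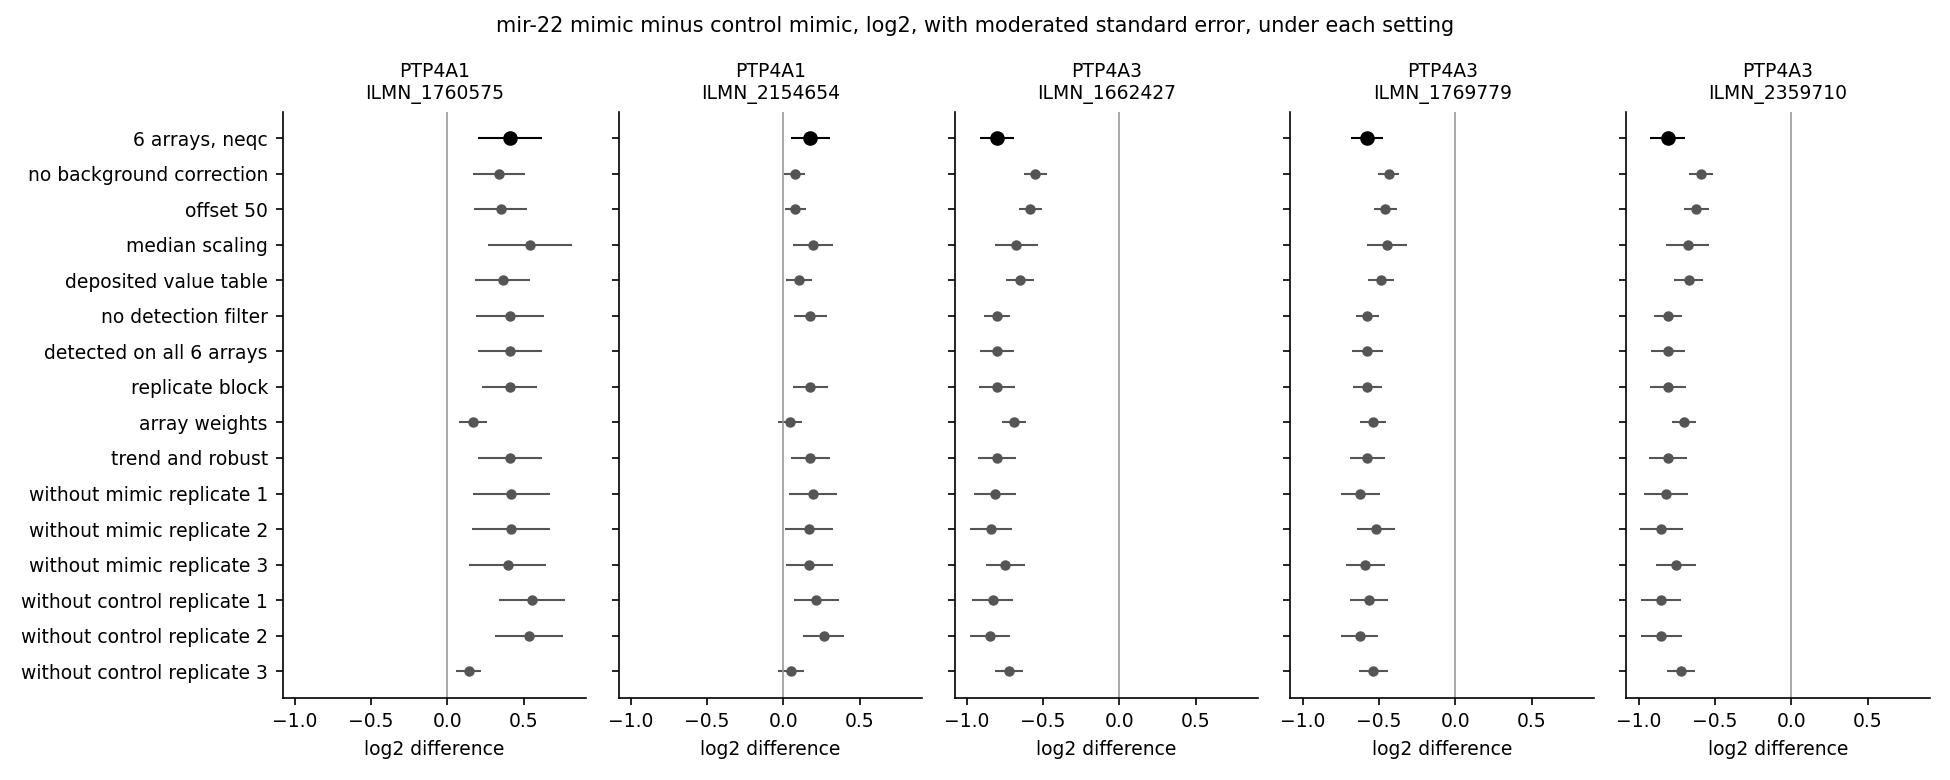
Difference between mir-22 mimic and control mimic arrays (log2, x axis) for the 5 PTP4A probes kept, with the moderated standard error, under the reported processing (black, top) and other settings (grey). The mean over probes is not shown. The PTP4A3 probes stay below 0 throughout, and PTP4A1 shrinks to 0.14 and 0.05 without control replicate 3 and to 0.17 and 0.05 with array weights.

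Genes reported elsewhere to control PTP4A genes moved in both directions. The list held 11 genes, of which 8 were measured and 2 passed the threshold, 1 higher and 1 lower, with a median difference of 0.07. Of all 11133 genes measured, 7.61% passed, 3.47% higher and 4.14% lower, with a median of -0.02. STAT3, a transcription factor of cytokine signalling reported to act upstream of PTP4A3, read 8.56, 8.61 and 8.75 with the mimic and 7.81, 7.73 and 8.02 with the control. It rose by 0.79 ± 0.11 (adjusted p = 0.00941, limma), and its other probes rose by 0.66 and 0.73. MEF2C, a transcription factor reported to drive PTP4A3 in endothelial cells, read 5.76, 5.56 and 5.59 with the mimic and 6.08, 6.20 and 6.41 with the control. It fell by 0.60 on the log2 scale (SE 0.12, adjusted p = 0.0264, limma).

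The other regulators measured did not pass. EGR1, an early growth response factor reported to drive PTP4A1, was at 0.19 ± 0.10 (adjusted p = 0.274, limma), with every mimic array above every control array. The groups did not overlap, in either direction, for 7 of the 8 measured regulators and for 3812 of all 11133 genes. SMAD4, the common mediator of TGF-beta signals, was at 0.38, and the growth factor gene VEGFA was at 0.43. Without control replicate 3 VEGFA was at 0.57 and passed (adjusted p = 0.00958, limma). STAT3 fell short of the threshold without any 1 mimic array, and MEF2C without any 1 mimic array or control replicate 2 and with median scaling (-0.47). Both passed without control replicate 3.

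Genes reported to act with or downstream of PTP4A proteins included 2 that rose and none that fell, among 23 measured of 28, which is 8.7% against 7.61% of all genes, and their median difference was 0.00. RHOB, a small GTPase that reshapes actin and endosomes, read 6.08, 5.88 and 6.14 with the mimic and 5.12, 5.18 and 4.64 with the control, where it was above background on 2 of 3 arrays. It rose by 1.05 ± 0.16 (adjusted p = 0.0108, limma). The related GTPase genes RHOA, RHOC and RAC1 were at 0.39 ± 0.29, -0.004 ± 0.11 and 0.001 ± 0.11 and did not pass. PIK3R1, the regulatory subunit of phosphoinositide 3-kinase, rose by 0.42 ± 0.10 (adjusted p = 0.0471, limma), with its other probe at 0.14 and not passing. With the replicate number as a block its adjusted p was 0.053 (limma), so this call rests on the choice of fit.

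CDH2 and ITGB1 of the same list lay just short of the threshold, while the integrin gene ITGA1 was at -0.04 (adjusted p = 0.88, limma). CDH2, which encodes N-cadherin, read 11.44, 11.43 and 11.39 with the mimic and 10.96, 10.99 and 10.36 with the control, a difference of 0.65 ± 0.17 (adjusted p = 0.0596, limma). ITGB1, the integrin beta chain reported to act with PTP4A3, read 13.36, 13.23 and 13.08 with the mimic and 12.83, 12.75 and 12.19 with the control, a difference of 0.64 ± 0.18 (adjusted p = 0.0726, limma). One of its other probes passed at 0.52 (adjusted p = 0.0342, limma) and one was at 0.12. Both genes passed with the replicate number as a block (adjusted p = 0.0391 and 0.0256, limma). Like PTP4A1, both were lowest on control replicate 3, and without that array they were at 0.45 and 0.44 and passed (adjusted p = 0.00859 and 0.0238, limma). Their differences were thus smaller in that setting, where 16.3% of all genes passed. STMN1, which encodes the microtubule regulator stathmin, was at -0.36 (adjusted p = 0.0978, limma).

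RHOB fell short of the threshold without any 1 of the mimic arrays, and PIK3R1 also without control replicate 1 or 2. The kinase genes SRC and CSK, which are set in the pathway of PTP4A3, were at 0.05 ± 0.16 and 0.04 ± 0.12. The ezrin gene EZR was at -0.11 ± 0.10. CDH1 and SNAI1 did not pass the filter on dim signals.

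None of the magnesium transport genes passed in limma, among 16 measured of 18, against 7.61% of all genes, with a median difference of -0.02. NIPAL1 was the 1 gene of the 16 with an unadjusted p under 0.05, which 2850 of all 11133 genes had. By limma the CNNM genes, whose products bind PTP4A proteins, were at -0.02 ± 0.18 for CNNM1, -0.11 ± 0.14 for CNNM2, -0.04 ± 0.10 for CNNM3 and -0.175 ± 0.14 for CNNM4. On the arrays CNNM3 read 7.77, 7.60 and 7.55 with the mimic and 7.61, 7.65 and 7.78 with the control, so the groups lay over each other. CNNM4 read 5.63, 5.36 and 5.48 against 5.56, 5.50 and 5.94, and its highest array was control replicate 3. CNNM1, CNNM2 and CNNM3 changed sign in 4, 1 and 4 of the 16 other settings, median scaling among them for CNNM1 and CNNM3, so they have no settled direction. NIPAL1, a magnesium transporter gene of the NIPA family, was at -0.59 ± 0.16 (adjusted p = 0.0634, limma) and passed with the replicate number as a block (adjusted p = 0.029) and without control replicate 3 (-0.42). ARL15, a small GTPase that binds CNNM proteins, was at -0.21 with its other probe at 0.10, and NIPA2 was at 0.18 with its other probe at -0.20.

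Enzymes that make and attach the lipid anchor held no gene that passed. Of 13 genes of the mevalonate pathway and CAAX processing measured among 14, none passed in limma, against 7.61% of all genes, and the median difference was 0.02. An unadjusted p under 0.05 (limma) was found for 1 of the 13, RCE1, and for 2850 of all 11133 genes. FNTA and FNTB, the chains of protein farnesyltransferase, were at -0.17 ± 0.15 and 0.10 ± 0.13. RCE1, the protease that removes the last residues of a CAAX protein, read 8.34, 8.31 and 8.60 with the mimic and 8.75, 8.83 and 9.17 with the control. Its difference was -0.50 ± 0.14 (adjusted p = 0.0778, limma), its other probe was at -0.47, and it passed with the replicate number as a block (adjusted p = 0.0292). Without control replicate 3 it passed at -0.37 (adjusted p = 0.0496, limma). ICMT, the methyltransferase that completes the anchor, was at 0.02 ± 0.13, GGPS1 at 0.16 and PMVK at 0.16. PGGT1B was at -0.01 on its brightest probe, while its other probe was at 0.64 and did not pass (adjusted p = 0.0902, limma).

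Among small phosphatases of related fold 2 of 21 measured genes fell and none rose, which is 9.52% against 7.61% of all genes, with a median difference of -0.03. DUSP23, a small dual-specificity phosphatase, read 8.48, 8.34 and 8.66 with the mimic and 9.11, 9.15 and 9.51 with the control, and fell by 0.76 on the log2 scale (SE 0.14, adjusted p = 0.0206, limma). CDC14A, a relative of the yeast mitotic exit phosphatase, read 5.70, 5.61 and 5.71 with the mimic and 6.61, 6.23 and 6.20 with the control. It fell by 0.67 (SE 0.13, adjusted p = 0.0242, limma), but its other kept probe was at -0.01, so its probes disagree. PTPDC1 was at -0.48 (adjusted p = 0.0828, limma, and 0.0461 with the replicate number as a block), DUSP3 at 0.32 and DUSP18 at -0.29. DUSP22 was at 0.08 on its brightest probe, while 1 of its other probes passed at -0.62 (adjusted p = 0.0155, limma) and another was at -0.12. DUSP23 and CDC14A fell short of the threshold when 1 mimic array or control replicate 2 was left out. CDC14A also fell short with median scaling (-0.56) and as the mean over its probes (-0.34).

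Among classical protein tyrosine phosphatases 1 of 24 measured genes, of 37 listed, rose and none fell, which is 4.17% against 7.61% of all genes, with a median difference of -0.04. An unadjusted p under 0.05 was found for 6 of the 24 and for 2850 of all 11133 genes. PTPRB, a receptor phosphatase best known from endothelium, read 6.46, 6.52 and 6.58 with the mimic and 5.96, 5.91 and 5.91 with the control. It rose by 0.60 ± 0.09 (adjusted p = 0.0114, limma), and without any 1 of the mimic arrays it fell short of the threshold. Of the endothelial markers, VWF was detected on no array, and CDH5 and PECAM1, both detected on all 6, were at -0.38 and 0.11 and did not pass. PTPRR was at 0.51 (adjusted p = 0.0577, limma) with its other probe at -0.18, and passed with the replicate number as a block (adjusted p = 0.0386) and without control replicate 3 (0.56). PTPRK was at -0.33, and PTPN1, which encodes PTP1B, was at 0.32 (adjusted p = 0.107, limma) and passed without control replicate 3.

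**Figure D3:**
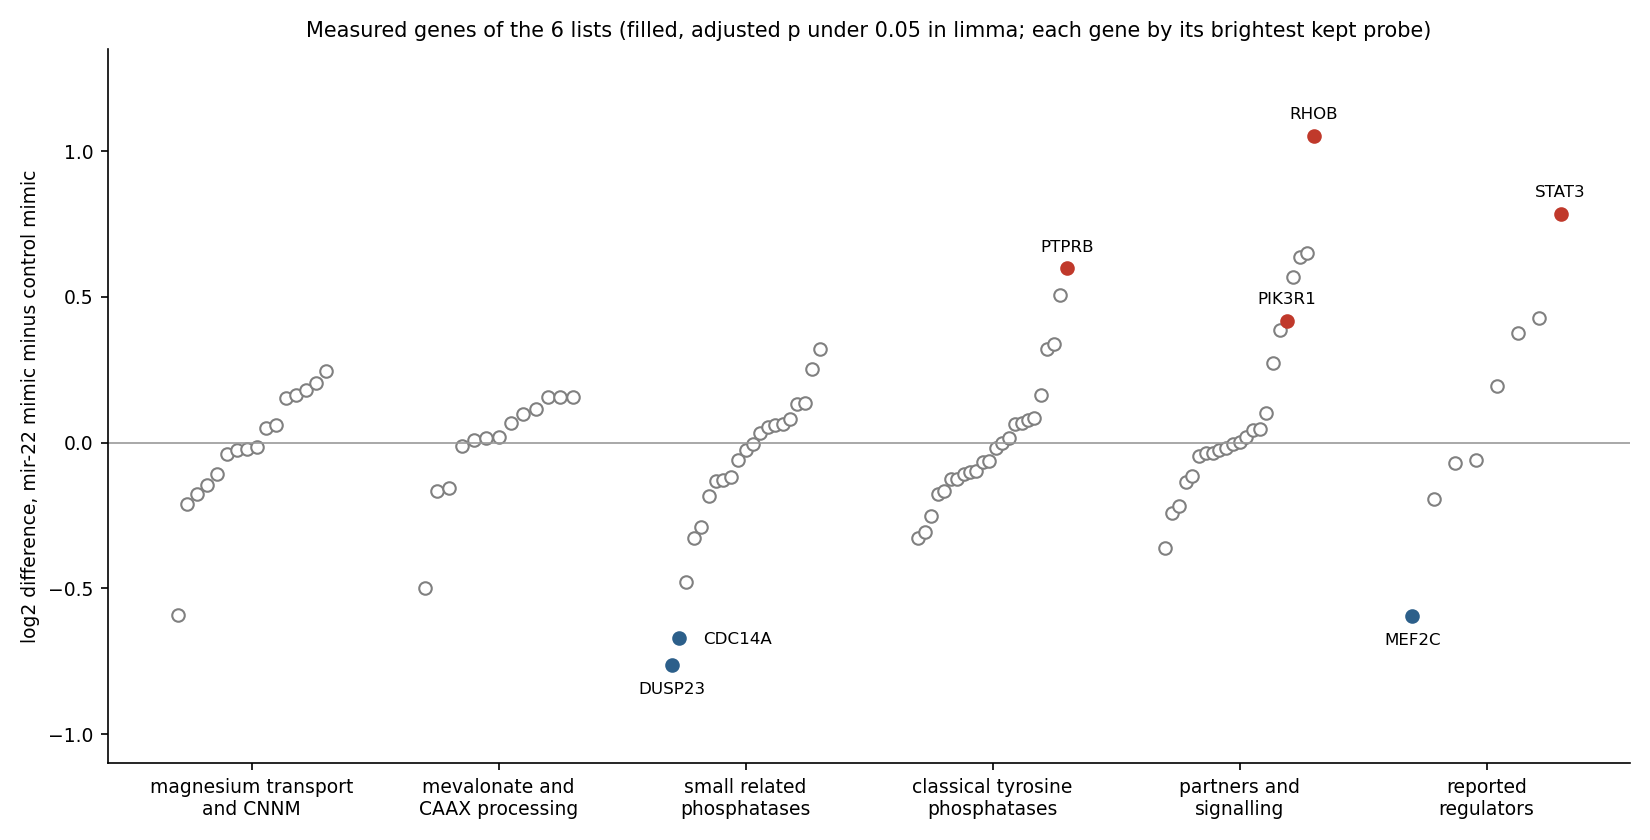
Difference between mir-22 mimic and control mimic arrays (log2, y axis) for every measured gene of the 6 lists (x axis), each point being the brightest kept probe of a gene. Filled points passed an adjusted p under 0.05 in limma: STAT3, RHOB, PIK3R1 and PTPRB higher, MEF2C, DUSP23 and CDC14A lower, and no gene of the magnesium or CAAX processing lists.

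The genes that PTP4A1 most resembled over the 6 arrays shared its fall on control replicate 3. They were TMED7, a cargo receptor of the secretory pathway (r = 0.999), TM2D1 (0.998), the glia maturation factor gene GMFB (0.997), the nucleolar gene NGDN (0.997) and the small GTPase gene RAP1B (0.997). Their values on control replicate 3 differed from the average of control replicates 1 and 2 by -0.79 for TMED7 to -1.84 for RAP1B. Over 11132 genes compared, 103 had an r above 0.98 with PTP4A1.

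The genes most similar to PTP4A3 separated the groups, as PTP4A3 did, and since they were picked for that likeness on the same arrays their differences are given without a test. They were the microtubule-associated protein gene MAP4 (r = 0.998), the ceramidase gene ACER3 (0.997), LRRFIP2 (0.996), the prion protein gene PRNP (0.995) and the actin and phosphatase regulator PHACTR2 (0.995), and 53 genes had an r above 0.98. With the mimic ACER3 was at -0.70, LRRFIP2 at -0.47, PHACTR2 at -0.38, MAP4 at -0.24 and PRNP at -0.21. The likeness was measured with the probe ILMN_1769779.

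**Figure D4:**
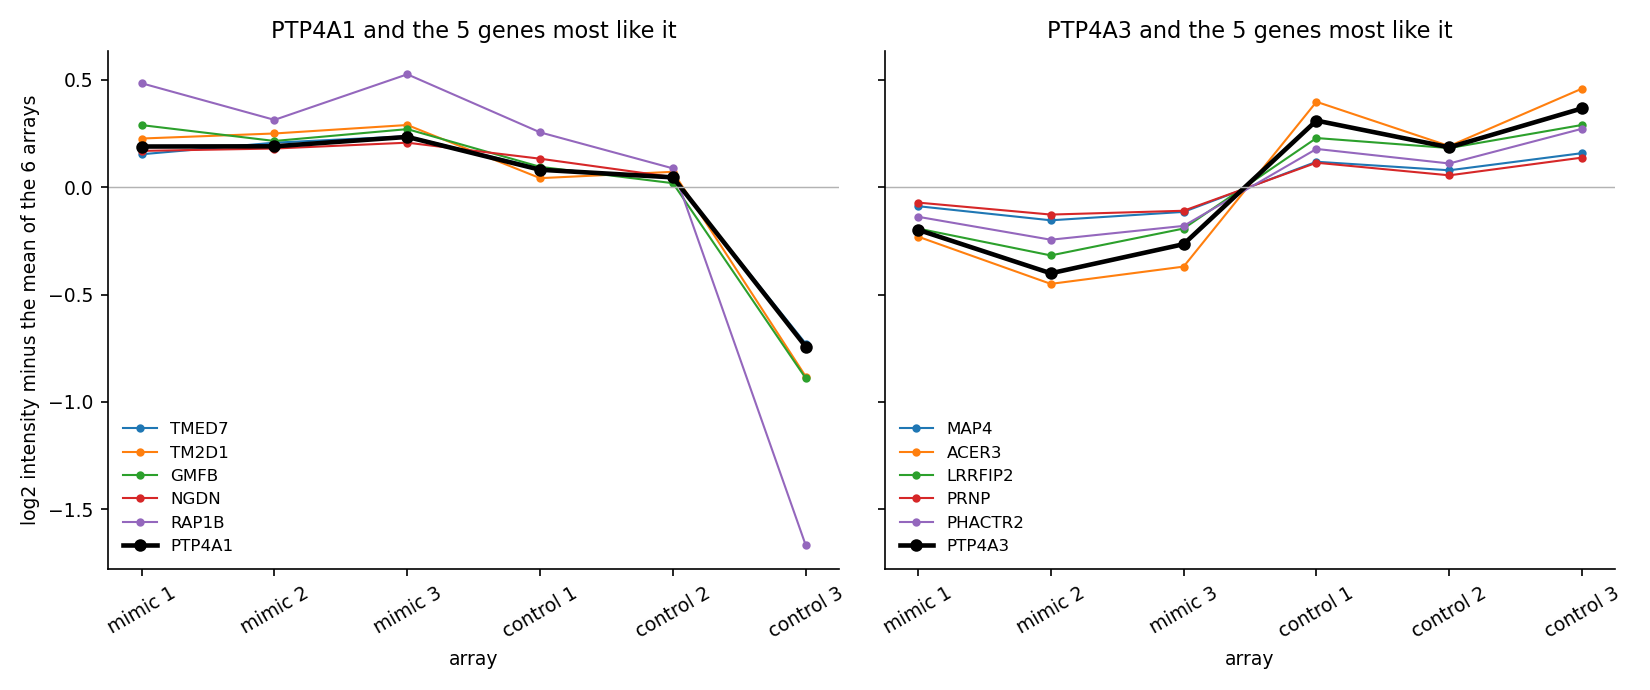
Log2 intensity minus the mean of the 6 arrays (y axis) on each array (x axis) for PTP4A1 (left, black) and PTP4A3 (right, black) with the 5 genes whose Pearson correlation to each was highest. The left profiles drop on control replicate 3, whereas the right profiles are low on all 3 mimic arrays and high on all 3 control arrays.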

How the data were processed

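Total RNA was hybridised to 1-colour bead arrays, 1 per sample. Each deposited array file holds, per the file headers, each probe's mean bead intensity, its spread, the count of beads and a detection score. The authors used BeadStudio, per the submitters' processing notes, with no version given in the sources used here. The deposited value table, whose intensity values were normalised between arrays by the authors, names the probes. All 48803 rows were joined to it 1 to 1 by their values, and the platform annotation gave 28098 probes a single symbol, 13 several and 20692 none.

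The raw intensity was processed with neqc in limma 3.58.1 (R 4.3.3): normal-exponential background from the detection p (1 minus the score), offset 16, quantile normalisation and log2. The offset understates fold changes of dim probes. Groups were compared with lmFit and eBayes, in a two-sided test whose p-values were adjusted by Benjamini-Hochberg over all 18732 probes kept. A gene stands for its brightest kept probe. The median standard error of a log2 difference was 0.122, and a probe rested on a median of 41 to 42 beads, so 3 arrays per group limit the precision. Samples are labelled as biological replicates, but separate cultures are not named, and a p-value here reflects only how far these arrays differ, which may be technical.

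Deviations from the group means correlated at 0.334, 0.135 and 0.434 between mimic and control arrays of number 1, 2 and 3. Mimic replicate 1 correlated with control replicate 2 at 0.315, and mimic replicate 2 with control replicate 1 at 0.181, so the numbers do not settle a pairing. The reported fit took no account of pairs, and the replicate number entered only as a block in an alternative setting. The members and lists were chosen with earlier results of these data known. Named were all member probes, list genes that passed, up to 3 others of each list with the lowest adjusted p, the CNNM genes, FNTA, FNTB, RCE1 and ICMT, and the 5 genes most like each member; other genes were named after their values were seen. Alternatives were the background correction, offset, scaling, detection filter, the authors' table, the replicate block, array weights, a trended robust fit, the mean over probes and leaving out each array. The fit was also run on simulated data, whose outcome is not given here, and no result above rests on it.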

Additional observations from a re-analysis of the deposited data

How the results depend on the processing

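PTP4A1 and PTP4A3 kept their direction in all 16 other settings. No PTP4A2 difference is given for any setting, also not for the one without a detection filter, because its probes were below background. The PTP4A3 difference was -0.437 without background correction, -0.458 with an offset of 50, -0.446 with median scaling and -0.728 as the mean over its kept probes. Leaving out 1 array moved it between -0.627 and -0.52, and PTP4A1 between 0.141 (without control replicate 3) and 0.554. Over all probes 1210 passed, against 628 with median scaling and 4405 with array weights, and 134 to 2689 with 1 array left out, most without control replicate 3. With median scaling 73.1% of these were higher with the mimic, against 47.0%. The cause of these changes was not tested.

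Counts of list genes that passed (of 0, 0, 2, 1, 2 and 2 for magnesium transport, CAAX processing, related phosphatases, classical phosphatases, partners and regulators) were 2, 1, 5, 6, 6 and 4 with array weights. These were 12.5%, 7.69%, 23.8%, 25%, 26.1% and 50% of the genes measured, against 26.3% of all genes in that setting. With the replicate number as a block they were 1, 1, 3, 2, 3 and 2, and with median scaling 1 for the related phosphatases, partners and regulators. Of all genes 9.89% passed with the block and 3.97% with median scaling, against 7.61% in the reported fit. With the trended robust fit the magnesium list had 1, with the mean over probes the magnesium list and the related phosphatases had 1 each and the partners 3, and with detection on all 6 arrays the partners had 1. Of all genes 9.05%, 9.59% and 9.21% passed in these 3 settings. Leaving out 1 array gave 0 to 1, 0 to 1, 0 to 3, 0 to 3, 0 to 4 and 0 to 3, each highest without control replicate 3. The share of all genes then ran from 0.853% to 16.3%, also highest without control replicate 3. Besides the calls named above, the block ended or made no call among the named genes. Signs turned for CNNM1 (0.091 with median scaling, 0.214 with array weights, -0.221 to 0.161 with 1 array left out), CNNM2 (-0.175 to 0.014), CNNM3 (0.099, 0.008, -0.102 to 0.01), FNTA (0.013 with array weights, -0.287 to 0.004), ICMT (-0.052 to 0.152) and NIPA2 (-0.01 as the mean over probes). None of these passed. Dim signals limit PTP4A2 and the weaker PTP4A1 probe.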
